A study of Mus musculus with 12 samples.

Results

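The genes described here are 6 heavy-chain genes of the mouse major histocompatibility complex (MHC) class I region, H2-K1, H2-D1, H2-Q6, H2-T10, H2-T23 and H2-M3, with the class I light-chain gene B2m and the class I transactivator gene Nlrc5. These genes, and the gene lists further below, were chosen with earlier results of these data known. Counts of them set against all tested probes are therefore descriptions and no independent test. By gene symbol and without use of a measured value, every probe that the platform annotation assigns to 1 of the 8 symbols was taken. That gave 20 probes of 45281 on the array, for 8 of 19057 named genes. Of the 20 probes, 13 were detected on all 12 arrays, 18 passed the filter on dim probes (detection p under 0.01 on at least 3 arrays) and 2 were detected on no array. The undetected probes were ILMN_2608090 of H2-D1, at normalized log2 intensities of 4.19 to 4.45 over the 12 arrays, and ILMN_2670561 of B2m, at 4.16 to 4.37. A filter of this kind admits a probe that is bright in 1 group only, so the 18 tested probes are not an unselected sample of the 20.

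Expression was measured on Illumina mouse bead arrays in mouse embryonic fibroblasts (MEFs), connective tissue cells grown from embryos, labelled as strain C57BL/6J in all groups, a label that was not checked against the data. The 2 genotypes were Ulk1/2+/+, called WT here, and Ulk1/2-/-, called DKO here, which lacks the autophagy-initiating kinases ULK1 and ULK2. Each genotype was left untreated or given mouse interferon beta (IFNβ) at 2500 IU/ml for 6 hours, with 3 arrays in each of the 4 groups. The series title places the study in type I interferon signalling through ULK1, and the labels do not say whether the 3 arrays of a group came from separate cultures, so p-values measure the spread between these samples, which may be technical.

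MHC class I molecules carry peptides from inside the cell to its surface, where CD8 T cells inspect them. Each consists of a heavy chain, such as the classical H2-K and H2-D chains encoded by H2-K1 and H2-D1, paired with the invariant light chain beta-2-microglobulin encoded by B2m. The non-classical heavy chains have narrower tasks: H2-T23 encodes Qa-1, which shows a leader peptide of other class I chains to natural killer cell receptors, H2-M3 presents N-formylated peptides of bacteria and mitochondria, and H2-Q6 belongs to the Qa-2 group. H2-T10 belongs to a pair of class I-like genes known for recognition by gamma delta T cells, and it is annotated as a transcribed pseudogene in the RefSeq table used here. Type I interferon raises class I expression in fibroblasts through STAT and IRF factors, and NLRC5, itself made in response to interferon, acts on class I promoters together with factors that bind their X and Y boxes.

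The promoter stretches of 6 of the 8 genes are printed here as a description of their letters, and their part in the IFNβ changes was not tested. The sequences come from RefSeq (build GRCm38.p6, 300-base windows from 250 bases before to 50 after an annotated start), and each is cut to the stretch that holds the motifs. H2-K1 has more than 1 annotated start, and the one further downstream was used because it leaves all matches upstream of the start. The H2-K1 stretch is chr17:34000334-34000468 on the minus strand, H2-D1 chr17:35262913-35263055 on the plus strand, H2-Q6 chr17:35424667-35424809 on the plus strand, H2-T23 chr17:36032739-36032835 on the minus strand, H2-M3 chr17:37270095-37270227 on the plus strand and B2m chr2:122147538-122147648 on the plus strand. Each is written 5′ to 3′ on its gene's strand. Capitals mark matches on either strand to GGGA and CCC with any 3 bases between (a kappa B site), GAAA and GAAA with any 2 bases between (an interferon-stimulated response element, ISRE), TGACG (the core of a cyclic AMP response element, CRE) and CCAAT, and the 11-base run GTTTCACTTCT that 4 of them share.
H2-K1: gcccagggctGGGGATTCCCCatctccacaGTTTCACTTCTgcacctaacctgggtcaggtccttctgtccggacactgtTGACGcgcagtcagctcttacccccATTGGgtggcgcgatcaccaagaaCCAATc
H2-D1: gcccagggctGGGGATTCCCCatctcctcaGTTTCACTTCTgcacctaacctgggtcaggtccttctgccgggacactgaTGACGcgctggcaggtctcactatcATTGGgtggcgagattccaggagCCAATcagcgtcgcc
H2-Q6: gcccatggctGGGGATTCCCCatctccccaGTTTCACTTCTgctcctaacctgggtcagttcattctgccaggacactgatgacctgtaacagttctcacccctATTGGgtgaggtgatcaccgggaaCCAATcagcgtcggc
H2-M3: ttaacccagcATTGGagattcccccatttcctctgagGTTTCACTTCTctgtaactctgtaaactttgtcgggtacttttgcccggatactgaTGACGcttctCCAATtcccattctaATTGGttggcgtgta
H2-T23: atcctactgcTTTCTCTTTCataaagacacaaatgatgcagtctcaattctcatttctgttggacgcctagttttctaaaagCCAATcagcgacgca
B2m: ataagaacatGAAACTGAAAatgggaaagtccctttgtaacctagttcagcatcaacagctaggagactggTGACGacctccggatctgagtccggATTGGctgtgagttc
The H2-K1, H2-D1 and H2-Q6 stretches hold the kappa B letters, on overlapping matches of both strands, a little upstream of the shared run, and H2-M3 holds the run without those letters. The run was found by comparing these windows with each other. It stands in 19 of 32851 mouse windows (0.0578%), which belong to 18 genes, of which 7 are H2- genes. B2m and H2-T23 match the ISRE letters as spelled here, which stand in 3.44% of all windows, and the kappa B letters stand in 5.55%. The spelling is strict, so a stretch without a match may still hold an interferon element. On its other strand the shared run holds GAAA, without the further GAAA that the spelling asks for. Whether the run acts as an interferon element was not tested. The CRE core, in H2-K1, H2-D1, H2-M3 and B2m, stands in 20.8% of windows, and CCAAT, in all 6, in 37.4%. H2-M3 alone of the 6 also holds TTC and GAA with any 3 bases between (a gamma-activated site), outside the printed stretch, as do 8.3% of windows. The shares were counted over whole windows of 300 bases, while matches in the 6 genes were sought only in the 250 bases before the start. A match is a description of letters and no evidence of binding.

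Each array detected 13732 to 15240 of its probes (30.3 to 33.7%). The arrays fell into a set of 6 with median intensity 86.5 to 87.9 and a set of 6 with 97.5 to 99.7, and the lower set held 2 of 3 arrays in each WT group and 1 of 3 in each DKO group. Both probes of Ulk1 and both of Ulk2 were detected on all 6 WT arrays and on none of the 6 DKO arrays. All 4 Xist probes were detected on all 6 DKO arrays and on no WT array, and 1 probe of the Y-linked Eif2s3y on all 6 WT arrays and on no DKO array, so the genotypes also differ in sex and the effects of genotype and sex cannot be told apart. Of 14 fibroblast markers 13 were detected, Lum being the exception, while 11 of 13 leukocyte markers on the array, among them Ptprc, Csf1r and Itgam, were detected on no array. The other 2 leukocyte markers, Cd3e and Cd14, passed the filter on dim probes. The summed intensity of the leukocyte list was 344 to 365 in untreated WT, 322 to 341 in treated WT, 367 to 420 in untreated DKO and 365 to 406 in treated DKO. None of the 6 endothelial markers passed the filter on dim probes, and of 6 epithelial markers Cdh1 and Krt18 did, with a summed intensity of the list of 119 to 134 on the WT arrays and 138 to 162 on the DKO arrays. The part of these lists in the genotype differences was not tested. These are bulk samples, in which fewer cells with a transcript and less of it per cell cannot be told apart. Probe sequences were not used here, and because class I genes are near-identical over long stretches, the signal of a probe may include transcripts of a related gene.

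In WT cells all 18 tested probes of the 8 genes rose with IFNβ, against 7.37% of the 15856 probes tested on the array (limma with Benjamini-Hochberg adjustment over all of them, threshold 0.05). The rise was at least 2-fold for 17 of the 18, against 2.91% of all tested probes. The median change of the 18 was 1.84 on the log2 scale, with a range from 0.69 to 3.92, while the median of all tested probes was -0.06. The treated and untreated arrays did not overlap for any of the 18 probes, a separation that 31.3% of all tested probes showed. Values below are normalized log2 intensities and their differences, with the SE of each difference, and probes are compared only with themselves.

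**Figure D1:**
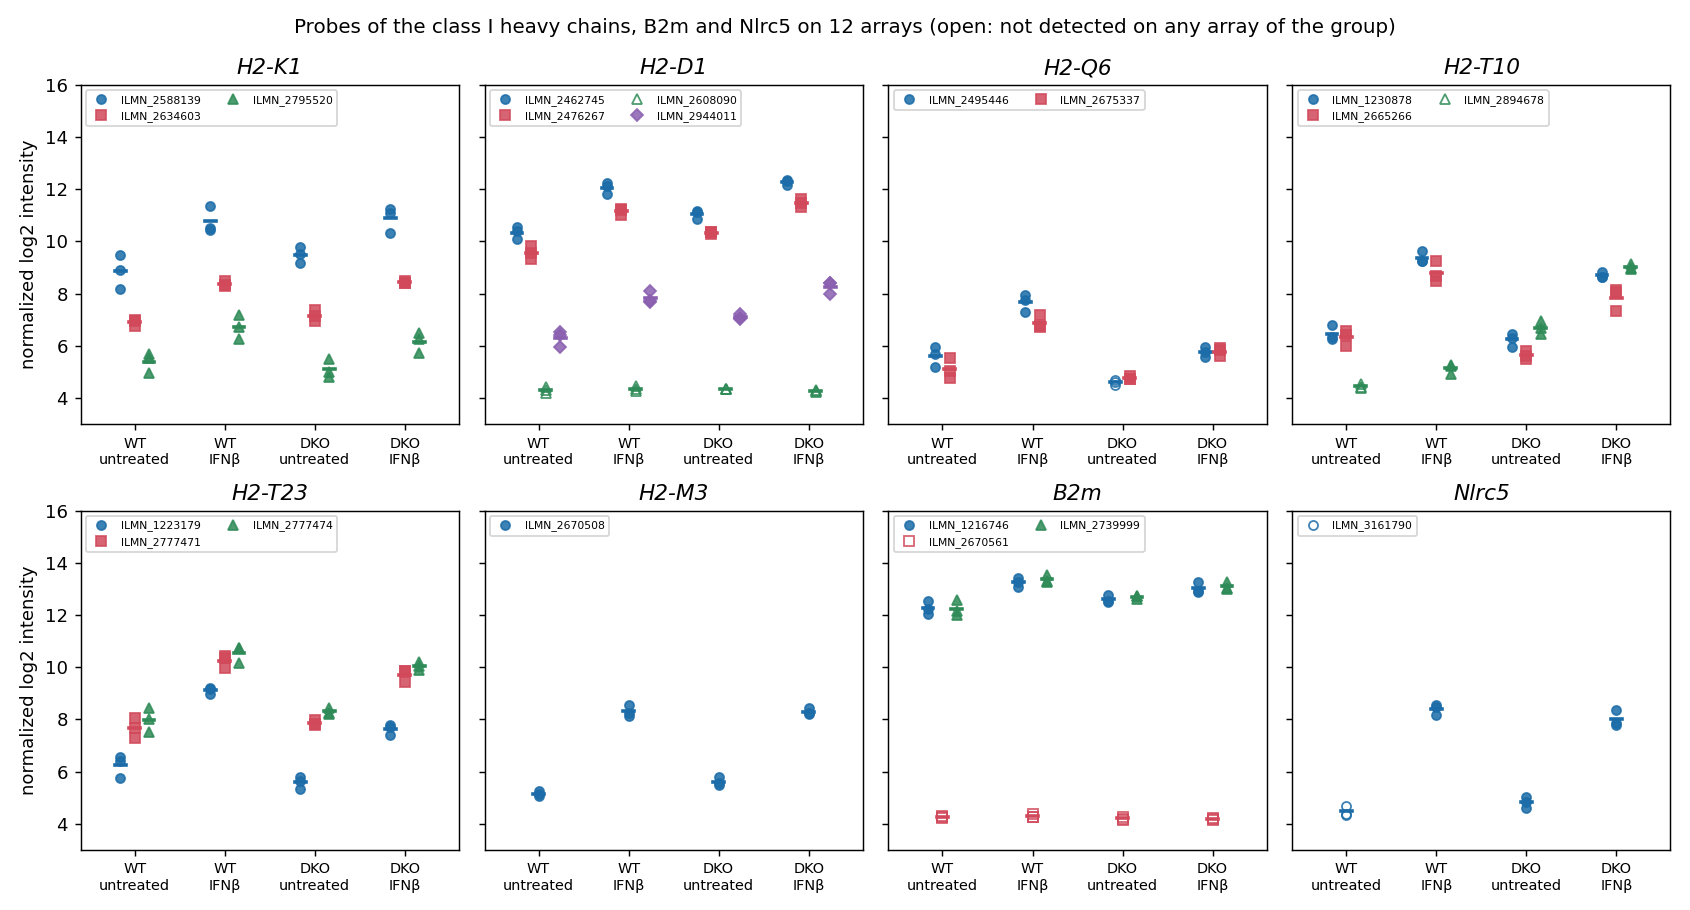
Normalized log2 intensity of all 20 probes of the 8 genes (y axis) in the 4 groups (x axis). Each point is 1 array, each short line a group mean over 3 arrays, and open symbols mark groups in which no array detected the probe. The treated arrays lie above the untreated arrays of the same genotype for all 18 tested probes, while ILMN_2608090 and ILMN_2670561 stay between 4.16 and 4.45.

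Of the classical heavy chains, H2-K1 rose at all 3 of its probes in WT. Its probe ILMN_2634603 read 6.98, 6.75 and 6.97 in untreated WT and 8.49, 8.33 and 8.30 after IFNβ, a change of 1.47 ± 0.12 (2.78-fold, adjusted p = 5.7e-07). The treated arrays lay closely together and more than 1 log2 unit above every untreated array. Probe ILMN_2588139 spread more, at 8.90, 8.18 and 9.49 untreated and 10.43, 10.52 and 11.35 treated, and rose by 1.91 ± 0.33 (adjusted p = 0.00096). The third H2-K1 probe, ILMN_2795520, rose by 1.32 ± 0.27 (adjusted p = 0.0033). For ILMN_2588139 the arrays of the set with the higher median intensity read above those of the lower set in all 4 groups, the only 1 of the 18 probes with that order, and its WT change was 1.94 within the lower set and 1.85 within the higher set.

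H2-D1 gave nearly equal changes at its 3 tested probes. ILMN_2462745 read 10.08 to 10.55 on the 3 untreated WT arrays (mean 10.34 ± 0.24, SD) and 12.22, 11.82 and 12.14 after IFNβ, a rise of 1.72 ± 0.14 (3.29-fold, adjusted p = 8.2e-07). The groups stood more than 1 log2 unit apart at their nearest arrays. ILMN_2476267 and ILMN_2944011 rose by 1.59 ± 0.13 and 1.53 ± 0.17.

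The non-classical heavy chains rose at all of their tested probes in WT. H2-M3, the N-formyl peptide-presenting chain, went from 5.27, 5.13 and 5.07 to 8.55, 8.26 and 8.11, a change of 3.15 ± 0.13 (8.89-fold, adjusted p = 3.3e-10). Its untreated arrays were all detected, though near the lowest detected signal, and its treated arrays lay about 3 units above them. The size of this change depends on the processing: under the alternative settings it fell as low as 1.84, while passing in each. H2-T23, which encodes Qa-1, rose by 2.87 ± 0.19 at ILMN_1223179 and by 2.57 ± 0.18 and 2.56 ± 0.21 at ILMN_2777471 and ILMN_2777474. The first of these read 6.58, 5.76 and 6.40 untreated and 9.21, 8.97 and 9.16 treated, and the last 8.44, 7.51 and 8.01 untreated and 10.75, 10.17 and 10.72 treated. The 3 probes of H2-T23 differed by less than 2 of these SEs in their WT change, and replicate 2 of the untreated cells was the lowest array at each.
H2-T10 was the gene whose probes disagreed in WT. ILMN_1230878 read 6.79, 6.35 and 6.24 in untreated WT and 9.65, 9.23 and 9.24 after IFNβ, a rise of 2.91 ± 0.17 (7.52-fold, adjusted p = 1.1e-08), and ILMN_2665266 rose by 2.47 ± 0.23 (adjusted p = 2.2e-06). ILMN_2894678 was detected on no untreated WT array, at 4.52, 4.42 and 4.40, and on 2 of 3 treated arrays, at 5.21, 5.28 and 4.93. Its rise of 0.69 ± 0.14 (adjusted p = 0.0027) corresponds to at least 1.17-fold, taking the lowest detectable signal of each array as the floor. That call did not pass without background correction (0.21, adjusted p = 0.075) or within the higher set of arrays (0.53, adjusted p = 0.11).

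H2-Q6, of the Qa-2 group, rose by 2.07 ± 0.19 at ILMN_2495446 (4.20-fold, adjusted p = 2.4e-06) and by 1.76 ± 0.18 at ILMN_2675337 (adjusted p = 5.8e-06). The first read 5.95, 5.19 and 5.67 in untreated WT and 7.77, 7.31 and 7.94 after IFNβ, so the groups were separated by more than the spread within either.

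Apart from ILMN_2894678 of H2-T10, the probes of the light chain B2m had the smallest rises in WT in the main fit. That order depends on the processing. Under alternative settings ILMN_2795520 of H2-K1 fell as low as 0.63 and ILMN_2675337 of H2-Q6 as low as 0.81, below the lowest B2m value of 0.90. ILMN_2739999 went from 12.58, 12.17 and 12.00 to 13.54, 13.31 and 13.26, a rise of 1.12 ± 0.14 (2.18-fold, adjusted p = 6.9e-05), and ILMN_1216746 rose by 1.00 ± 0.15 (2.01-fold, adjusted p = 0.00029). The treated and untreated arrays did not overlap at either probe. The transactivator Nlrc5 had the highest change of the 18 probes in the main fit. Its single probe was detected on no untreated WT array, at 4.69, 4.38 and 4.35, and on all treated arrays, at 8.47, 8.53 and 8.17. The fitted change was 3.92 ± 0.17 (adjusted p = 5.2e-10), and the bright group stood at least 11.2-fold above the detection floor of the untreated arrays. Under alternative settings the Nlrc5 change fell as low as 2.12, below the lowest value of 2.18 at ILMN_1230878 of H2-T10.

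In DKO cells 16 of the 18 probes rose with IFNβ in the main fit, against 5.72% of all tested probes, and the 2 probes that did not pass were those of B2m. By the fitted change all 16 rose at least 2-fold, against 2.32% of tested probes. With the replicate number as a block within each genotype all 18 passed, as did 2770 of the 15856 tested probes in either direction. The median change of the 18 was 1.33 on the log2 scale, with a range from 0.41 to 3.19, against a median of -0.06 over all tested probes. The treated and untreated DKO arrays did not overlap for any of the 18, as for 26.9% of all tested probes.

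Nlrc5 read 5.01, 4.83 and 4.59 in untreated DKO, where 2 of 3 arrays detected it, and 8.36, 7.84 and 7.80 after IFNβ, a rise of 3.19 ± 0.17 (9.11-fold, adjusted p = 1.1e-08). H2-M3 rose from 5.79, 5.55 and 5.50 to 8.42, 8.24 and 8.21, by 2.68 ± 0.13 (6.40-fold, adjusted p = 4.5e-09). In both genes every treated array was far above every untreated array. The sizes depend on the processing: under the alternative settings these DKO changes fell as low as 1.70 for Nlrc5 and 1.65 for H2-M3. H2-T10 rose at its 3 probes in DKO, by 2.46 ± 0.17 at ILMN_1230878, 2.21 ± 0.23 at ILMN_2665266 and 2.32 ± 0.14 at ILMN_2894678. The last of these read 6.95, 6.69 and 6.45 untreated and 9.15, 8.98 and 8.93 treated and was detected on all 6 DKO arrays. H2-T23 rose by 2.05 ± 0.19, 1.84 ± 0.18 and 1.74 ± 0.21 at its 3 probes, with ILMN_1223179 at 5.64, 5.79 and 5.33 untreated and 7.72, 7.80 and 7.39 treated.

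The classical chains also rose in DKO. H2-K1 probe ILMN_2634603 went from 7.37, 7.15 and 6.95 to 8.49, 8.42 and 8.39, a change of 1.27 ± 0.12 (2.42-fold, adjusted p = 4.1e-06). The 3 treated arrays nearly coincided. The other H2-K1 probes passed by less: ILMN_2588139 rose by 1.39 ± 0.33 (adjusted p = 0.014) and ILMN_2795520 by 1.06 ± 0.27 (adjusted p = 0.020). The first lost its call without untreated DKO replicate 1 or treated DKO replicate 2 or 3 (1.21 to 1.30, adjusted p 0.059 to 0.069), and the second without untreated DKO replicate 1 or 3 or treated DKO replicate 2 or 3 (0.89 to 1.00, adjusted p 0.069 to 0.099). Without the filter on dim probes neither passed (adjusted p = 0.080 and 0.10), and ILMN_2795520 also missed the threshold without background correction and with the authors' log2 values (0.42, adjusted p = 0.066) and with median scaling (0.97, adjusted p = 0.094). H2-D1 rose by 1.21 ± 0.14, 1.13 ± 0.13 and 1.16 ± 0.17, with ILMN_2462745 at 11.15, 11.15 and 10.86 untreated and 12.16, 12.30 and 12.34 treated. H2-Q6 probe ILMN_2495446 was detected on no untreated DKO array, at 4.60, 4.50 and 4.69, and on all treated arrays, at 5.76, 5.94 and 5.55, a rise of at least 1.86-fold (1.15 ± 0.19, adjusted p = 0.0011). ILMN_2675337 of H2-Q6, detected on 1 of 3 untreated DKO arrays, rose by 1.00 ± 0.18 (adjusted p = 0.0017).

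B2m probe ILMN_2739999 read 12.72, 12.74 and 12.60 in untreated DKO and 13.26, 13.01 and 13.04 after IFNβ. The difference was 0.41 ± 0.14 (95% interval 0.11 to 0.72, adjusted p = 0.095), and ILMN_1216746 gave 0.43 ± 0.15 (adjusted p = 0.096). The arrays did not overlap at either probe, but neither passed the threshold. With the replicate number as a block within each genotype both passed, at adjusted p = 0.013 and 0.0058, as they did with the set of arrays by median intensity as a block (0.023 and 0.0062), and without untreated WT replicate 1 ILMN_2739999 passed at adjusted p = 0.042.

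**Figure D2:**
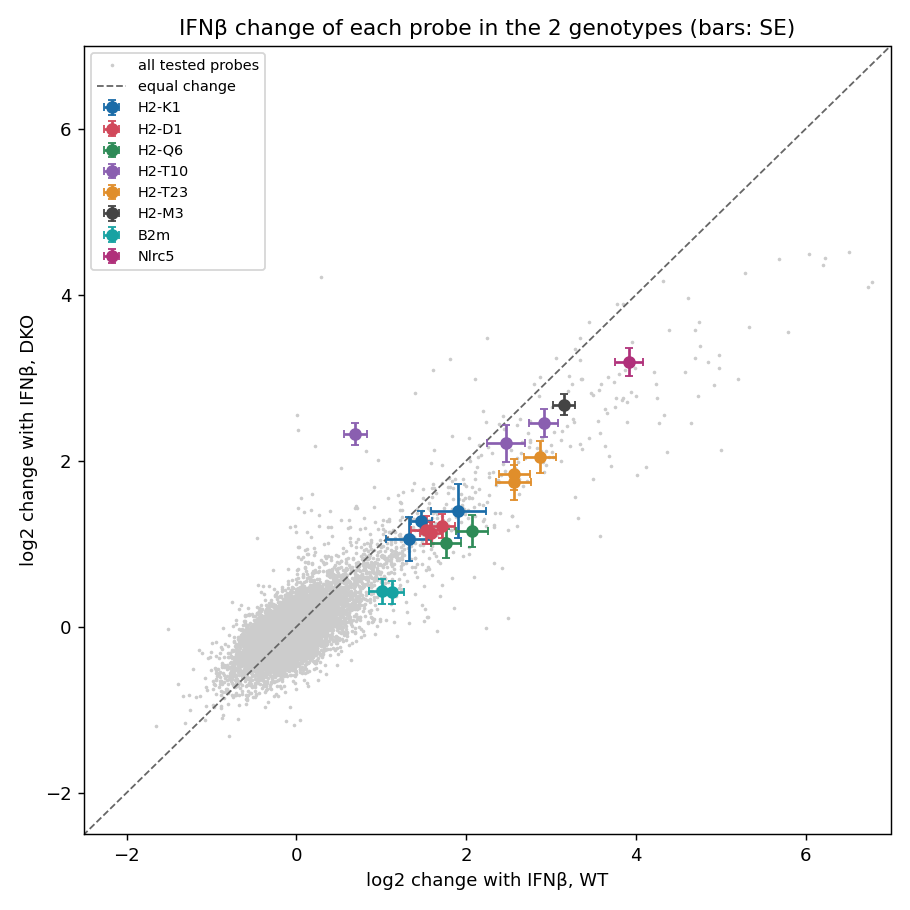
Change with IFNβ in WT (x axis) and in DKO (y axis), both on the log2 scale, for the 18 tested probes of the 8 genes (coloured, with the SE of each change) and for all 15856 tested probes (grey). The dashed line marks equal changes. Of the 18 probes 17 lie below it and ILMN_2894678 of H2-T10, at 0.69 and 2.32, lies above it.

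The difference between the IFNβ changes, DKO minus WT, passed the threshold in the main fit for 1 of the 18 probes, against 0.82% of all tested probes in either direction and 0.233% higher and 0.587% lower in DKO. That probe was ILMN_2894678 of H2-T10, with a difference of 1.63 ± 0.19 (95% interval 1.22 to 2.04, adjusted p = 0.00063). No untreated WT array detected it, so its WT change is bounded only from below, and 1.63 is a difference of measured intensities that sets no lower limit on the difference in transcript. The difference was negative for the other 17 probes, with a median over the 18 of -0.51 on the log2 scale. Over all tested probes 48.5% were negative and the median was 0.01. The sign of 1 of the 17 turned under 1 setting, the fit within the higher set of arrays, where ILMN_2634603 of H2-K1 gave 0.02. Before adjustment 12 of the 18 had a p under 0.05, as did 8.11% of all tested probes. The main fit does not use the replicate number. With that number as a block within each genotype 8 of the 18 passed, as did 322 of the 15856 tested probes.

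Of the 17 negative differences, 11 had an unadjusted 95% interval wholly below 0 and 6 had one that held 0. The H2-T23 probes gave -0.82 ± 0.27, -0.73 ± 0.26 and -0.82 ± 0.29 (adjusted p 0.33 to 0.41). Nlrc5 gave -0.73 ± 0.24 (95% interval -1.24 to -0.22, adjusted p = 0.31). No untreated WT array detected Nlrc5, so its WT change is a lower bound in each fit. Its -0.73 is a difference of measured intensities that does not size the difference in transcript. B2m gave -0.71 ± 0.20 at ILMN_2739999 (95% interval -1.14 to -0.27, adjusted p = 0.20) and -0.58 ± 0.21 at ILMN_1216746. H2-Q6 gave -0.76 ± 0.25 at ILMN_2675337 (adjusted p = 0.32) and -0.92 ± 0.27 at ILMN_2495446 (95% interval -1.50 to -0.34, adjusted p = 0.23). Since no untreated DKO array detected ILMN_2495446, its DKO change is a lower bound, and -0.92 may overstate the difference in transcript. The classical chains gave -0.52 to -0.20 over the 6 tested probes of H2-K1 and H2-D1, with intervals that held 0 at all 3 of H2-K1 and at ILMN_2944011 of H2-D1, and H2-M3 gave -0.48 ± 0.18, none of which passed. With the replicate number as a block within each genotype, the count rose from 1 to 8, with 7 lower in DKO: Nlrc5 (adjusted p = 0.027), both B2m probes (0.022 and 0.038), all 3 H2-T23 probes (0.010 to 0.025) and ILMN_2495446 of H2-Q6 (0.019), to which the same bound applies. With the set of arrays as a block the count was 4, through Nlrc5 (adjusted p = 0.023) and both B2m probes (0.041 and 0.047). Without background correction it was 3, through ILMN_2495446 (-0.79, adjusted p = 0.026) and ILMN_1223179 of H2-T23 (-0.90, adjusted p = 0.014). Without untreated WT replicate 1 the count was 3, through ILMN_2739999 of B2m (-0.87, adjusted p = 0.031) and ILMN_2675337 of H2-Q6 (-0.97, adjusted p = 0.049).

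**Figure D3:**
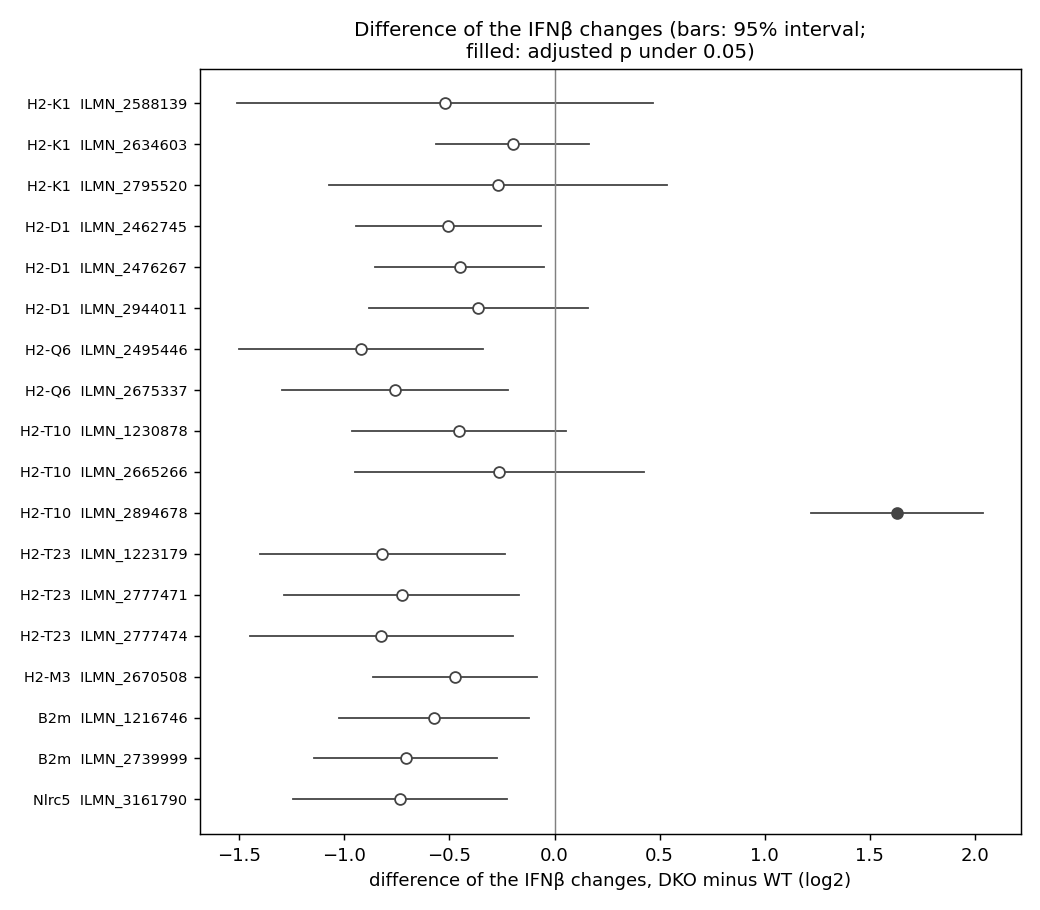
Difference of the IFNβ changes, DKO minus WT, on the log2 scale (x axis) for each of the 18 tested probes (y axis), with its unadjusted 95% interval. A filled symbol marks an adjusted p under 0.05. ILMN_2894678 of H2-T10 stands alone on the right at 1.63, and the other 17 lie between -0.92 and -0.20.

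In untreated cells 6 of the 18 probes were higher in DKO than in WT, 3 were lower and 9 did not pass, against 14.7% higher and 15.7% lower among all tested probes. Without background correction, with the authors' log2 values, with median scaling and without the filter on dim probes, 5 were higher and 1 was lower. The groups did not overlap for 8 of the 18, as for 43% of all tested probes. H2-D1 was higher at all 3 tested probes, by 0.71 ± 0.14, 0.76 ± 0.13 and 0.80 ± 0.17 (1.64 to 1.74-fold, adjusted p 0.00062 to 0.0028). All 3 untreated DKO arrays lay above all 3 untreated WT arrays at each. H2-M3 was higher by 0.46 ± 0.13 (adjusted p = 0.015) and B2m probe ILMN_2739999 by 0.44 ± 0.14 (adjusted p = 0.031), while ILMN_1216746 of B2m gave 0.34 ± 0.15 (adjusted p = 0.11). The H2-M3 call did not pass without untreated WT replicate 3 (0.42, adjusted p = 0.050) or untreated DKO replicate 1 (0.37, adjusted p = 0.062), and the B2m call did not pass without untreated WT replicate 2 or 3 or untreated DKO replicate 1 or 2 (0.32 to 0.42, adjusted p 0.072 to 0.13). H2-M3 gave 0.17 without background correction and with the authors' log2 values (adjusted p = 0.15) and 0.25 with a larger normexp offset (adjusted p = 0.067). B2m probe ILMN_2739999 missed the threshold with median scaling (0.36, adjusted p = 0.076), without the filter on dim probes (adjusted p = 0.074) and over the 2 untreated groups alone (adjusted p = 0.054). Nlrc5 gave 0.34 ± 0.17 (adjusted p = 0.14), and the 3 H2-K1 probes -0.30 to 0.64, with none past the threshold. With the set of arrays as a block, the set being split 2 to 1 between the genotypes, 9 probes were higher and 3 lower, and the calls gained were Nlrc5 (0.46, adjusted p = 0.0048), ILMN_1216746 of B2m (0.44, adjusted p = 0.0028) and ILMN_2634603 of H2-K1 (0.29, adjusted p = 0.048). That block raised the count over all 15856 tested probes as well, from 4809 in the main fit to 6193 in either direction.

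The remaining untreated differences were at H2-T10, H2-Q6 and H2-T23, each with at least 1 probe that did not pass. H2-T10 probe ILMN_2894678 was higher in DKO by 2.25 ± 0.14 (adjusted p = 2.4e-08), at least 3.46-fold above the floor of the WT arrays, which did not detect it. ILMN_2665266 of the same gene was lower in DKO by 0.70 (difference -0.70 ± 0.23, adjusted p = 0.031), and ILMN_1230878 gave -0.21 ± 0.17 (adjusted p = 0.37). H2-Q6 probe ILMN_2495446 was lower, at least 1.68-fold (difference -1.01 ± 0.19, adjusted p = 0.0012), while ILMN_2675337 gave -0.34 ± 0.18 (adjusted p = 0.17). H2-T23 probe ILMN_1223179 was lower (difference -0.66 ± 0.19, adjusted p = 0.018) with overlapping arrays, while the other 2 H2-T23 probes gave 0.20 and 0.32. The call of ILMN_2665266 did not pass without untreated WT replicate 1 or 3 or untreated DKO replicate 2 or 3 (-0.68 to -0.58, adjusted p 0.080 to 0.11), and that of ILMN_1223179 without untreated WT replicate 1 or 3 or untreated DKO replicate 3 (-0.58 to -0.49, adjusted p 0.063 to 0.089). Without background correction and with the authors' log2 values they gave -0.33 (adjusted p = 0.18) and -0.30 (adjusted p = 0.051), with median scaling -0.67 (adjusted p = 0.10) and -0.61 (adjusted p = 0.059), and without the filter on dim probes adjusted p = 0.12 and 0.070.

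After IFNβ 1 probe was higher in DKO than in WT, 6 were lower and 11 did not pass, against 14.1% higher and 14.3% lower among all tested probes. The groups did not overlap for 8 of the 18, as for 40.7% of all tested probes. The higher probe was again ILMN_2894678 of H2-T10, at 9.15, 8.98 and 8.93 in treated DKO and 5.21, 5.28 and 4.93 in treated WT, a difference of 3.88 ± 0.14 (14.7-fold, adjusted p = 8.7e-11) with 2 of 3 WT arrays detected. The other H2-T10 probes were lower in treated DKO: ILMN_1230878 read 8.83, 8.65 and 8.64 there against 9.65, 9.23 and 9.24 in WT (difference -0.67 ± 0.17, adjusted p = 0.0082), and ILMN_2665266 differed by -0.96 ± 0.23 (adjusted p = 0.0054). The 3 probes annotated to H2-T10 therefore gave opposite signs between genotypes at the same treatment. Whether each probe matches the class I alleles of both cultures was not tested.

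H2-Q6 was lower in treated DKO at both probes, by 3.80-fold at ILMN_2495446 (difference -1.93 ± 0.19, adjusted p = 3.8e-06) and 2.14-fold at ILMN_2675337 (difference -1.10 ± 0.18, adjusted p = 0.00033). All treated DKO arrays of these probes lay below all treated WT arrays. H2-T23 was lower at ILMN_1223179 (difference -1.48 ± 0.19, 2.79-fold, adjusted p = 5.2e-05). At ILMN_2777471 the difference was -0.53 ± 0.18 (adjusted p = 0.044) and at ILMN_2777474 -0.51 ± 0.21 (adjusted p = 0.084). The call at ILMN_2777471 did not pass when untreated WT replicate 3, treated WT replicate 1 or 3, untreated DKO replicate 2 or 3 or any 1 of the 3 treated DKO arrays was left out (-0.60 to -0.40, adjusted p 0.052 to 0.16), nor without the filter on dim probes (adjusted p = 0.14). With the set of arrays as a block, ILMN_2777474 passed as well (-0.56, adjusted p = 0.034).

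The probes of the remaining genes did not differ past the threshold between the treated groups. H2-M3 read 8.55, 8.26 and 8.11 in treated WT and 8.42, 8.24 and 8.21 in treated DKO, a difference of -0.02 ± 0.13 (95% interval -0.29 to 0.26, adjusted p = 0.94). H2-K1 differed by 0.06 ± 0.12 at ILMN_2634603 (95% interval -0.20 to 0.32), by 0.12 ± 0.33 at ILMN_2588139 and by -0.57 ± 0.26 at ILMN_2795520 (95% interval -1.14 to -0.004, adjusted p = 0.13). The last of these passed with the set of arrays as a block (-0.74, adjusted p = 0.0073). H2-D1 differed by 0.21 ± 0.14 at ILMN_2462745, by 0.31 ± 0.13 at ILMN_2476267 (adjusted p = 0.10), where the arrays did not overlap, and by 0.44 ± 0.17 at ILMN_2944011 (95% interval 0.07 to 0.81, adjusted p = 0.073), which passed without background correction (0.34, adjusted p = 0.041) and with a larger normexp offset (0.39, adjusted p = 0.044). B2m differed by -0.27 ± 0.14 at ILMN_2739999 (95% interval -0.58 to 0.04) and by -0.24 ± 0.15 at ILMN_1216746, and Nlrc5 by -0.39 ± 0.17 (95% interval -0.75 to -0.03, adjusted p = 0.10). The Nlrc5 difference passed without treated DKO replicate 1 (-0.57, adjusted p = 0.016), the highest of its 3 arrays, and with median scaling (-0.48, adjusted p = 0.025). Set in order, the group means of H2-D1, H2-M3, B2m and Nlrc5 ran from untreated WT, the lowest, through untreated DKO to the 2 treated groups. For these 4 genes the 2 treated groups did not differ past the threshold, nor did the 2 untreated groups for Nlrc5 and for ILMN_1216746 of B2m, or untreated and treated DKO for B2m. H2-K1 had its untreated groups below its treated groups at all 3 probes, with no difference past the threshold within either pair. For H2-Q6 and for ILMN_1223179 of H2-T23 the order was untreated DKO, untreated WT, treated DKO and treated WT, in which untreated DKO and untreated WT did not differ past the threshold at ILMN_2675337, and untreated WT was not tested against treated DKO.

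**Figure D4:**
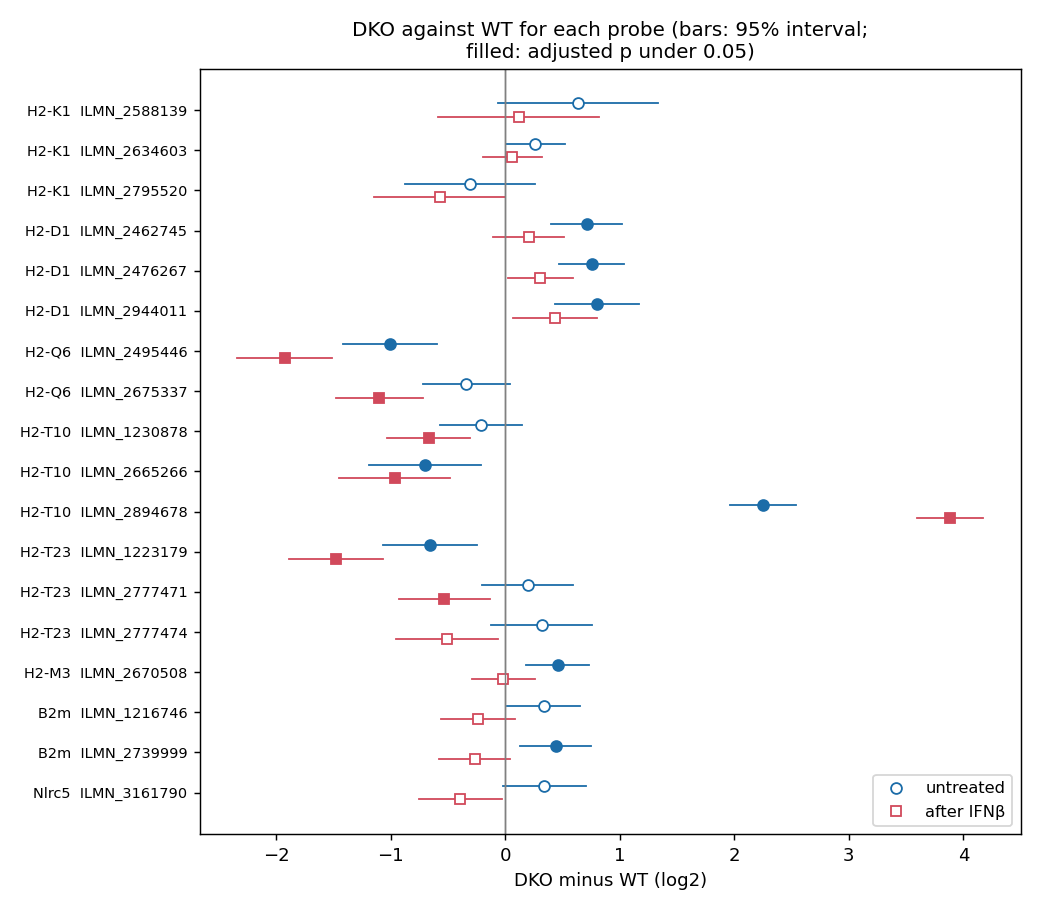
Difference between DKO and WT on the log2 scale (x axis) for each of the 18 tested probes (y axis), untreated (circles) and after IFNβ (squares), with unadjusted 95% intervals. Filled symbols mark an adjusted p under 0.05. ILMN_2894678 of H2-T10 lies at 2.25 and 3.88, the H2-D1 probes at 0.71 to 0.80 untreated, and the H2-Q6 probes at -1.93 and -1.10 after IFNβ.

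The genes that supply and load class I peptides rose alongside. Of 14 tested genes of proteasome, transport and loading, 9 rose in WT and 9 in DKO, and of their 20 probes 14 rose in each genotype, against 7.37% of all tested probes in WT and 5.72% in DKO. The median probe change was 1.74 in WT and 1.23 in DKO, against -0.06 over all tested probes in each. The immunoproteasome subunit Psmb10 rose by 3.20 ± 0.11 in WT and 2.84 ± 0.11 in DKO, and Psmb9 by 4.40 ± 0.19 and 3.57 ± 0.19. Of the peptide transporter, Tap2 rose by 3.35 ± 0.15 and 3.48 ± 0.15, while Tap1, undetected in untreated WT, rose at least 14.3-fold in WT (4.01 ± 0.14) and by 2.78 ± 0.14 in DKO. Tap1 was the 1 gene of this list whose IFNβ change differed between genotypes, by -1.23 ± 0.20 (adjusted p = 0.0058).

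Of 11 tested genes for factors that act on class I promoters, 4 rose and 2 fell in WT, and 3 rose and 1 fell in DKO. Of all tested probes 7.37% rose and 8.26% fell in WT, and 5.72% rose and 3.82% fell in DKO. Those that fell were Nfyb, a subunit of the CCAAT-binding factor (-0.32 ± 0.09), and Rfxap, a subunit of the X box-binding RFX complex (-0.34 ± 0.11), in WT, and the histone methyltransferase gene Ezh2 in DKO (-0.40 ± 0.11, adjusted p = 0.035), all named after their values were seen. The STAT partner of the interferon complex Stat2 rose at least 6.05-fold in WT (3.04 ± 0.12) and by 2.34 ± 0.12 in DKO. Irf1 rose by 1.98 ± 0.15 and 1.41 ± 0.15, and Irf9, the DNA-binding part of that complex, by 1.67 ± 0.14 and 0.79 ± 0.14. Irf2, an antagonist of IRF1, rose by 0.62 ± 0.13 in WT (adjusted p = 0.0038) and gave 0.13 ± 0.13 in DKO (adjusted p = 0.63), and the difference between those changes did not pass (-0.49 ± 0.18, adjusted p = 0.42).

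All 4 tested class I genes of the MHC outside the 8, H2-Q5, H2-Q7, H2-Q8 and H2-T22, rose in both genotypes by their probe with the highest mean, while 18 others on the array had no probe past the filter. Of their 7 tested probes 6 rose in WT and 7 in DKO, against 7.37% of all tested probes in WT and 5.72% in DKO. By the probe with the highest mean, H2-Q5 rose by 2.98 ± 0.18 in WT and 2.05 ± 0.18 in DKO, H2-Q8 by 3.01 ± 0.21 and 2.11 ± 0.21, H2-Q7 by 2.52 ± 0.23 and 2.13 ± 0.23 and H2-T22 by 2.07 ± 0.15 and 1.55 ± 0.15. Probes disagreed here as well. ILMN_2771182 of H2-Q8 was lower in DKO, by -0.94 untreated and -2.10 after IFNβ (adjusted p = 0.0013 and 9.2e-07), while ILMN_2951592 of the same gene gave 0.56 and -0.34 and passed in neither. ILMN_1220986 of H2-Q5, detected on the 3 treated DKO arrays alone, gave 0.02 with IFNβ in WT (adjusted p = 0.93) and rose at least 1.19-fold in DKO (adjusted p = 0.00052), with a difference between those changes of 0.67 (adjusted p = 0.063). This probe passed the filter on dim probes only through the treated DKO arrays, so its adjusted p-values are descriptions and no independent test. It was at least 1.12-fold higher in treated DKO than in treated WT (adjusted p = 3.0e-05), while ILMN_2862706 was lower (difference -0.96 ± 0.18, adjusted p = 0.00097).

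Of 3 tested class I-like genes outside the MHC, the iron regulator Hfe rose by 0.58 ± 0.12 in WT and 0.49 ± 0.12 in DKO, and the neonatal Fc receptor Fcgrt and the protein C receptor Procr did not pass (-0.24 ± 0.26 and -0.12 ± 0.13 in WT). Of 10 class II presentation genes on the array only H2-DMa, H2-DMb1 and H2-DMb2 passed the filter on dim probes. None of the 3 changed with IFNβ in either genotype by limma, with 0 at an unadjusted p under 0.05, and H2-DMa gave -0.21 ± 0.13 in WT and -0.03 ± 0.13 in DKO.

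Over the 12 arrays and 8890 genes, the patterns most like that of Nlrc5 were those of Tdrd7, Lmo2, Hap1, Cd274 and Nlgn2, with Pearson r of 0.995 to 0.996. B2m at ILMN_2739999 was most like Ifitm1, Ifitm3, Tgm2, Itm2b and Igtp (r 0.956 to 0.963), and H2-K1 at ILMN_2588139 most like Snhg12, Map2k1, Peli1, Dapp1 and Elf1 (r 0.941 to 0.960). These values describe arrays that share treatment, genotype and the set of median intensity, and carry no test. ILMN_2588139 is the probe that read higher in the set of higher median intensity in all 4 groups, and the part of the set in its likeness was not tested.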

How the data were processed

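Total RNA was made into biotin-labelled cRNA and hybridised to Illumina bead arrays, per the labels' protocols. The authors deposited a table of probe intensity (not normalized, with a detection p-value per probe and array) and a table of log2 values. For the software behind them the sources used here give no name. The deposited log2 values, with a median of 6.53 on each array, gave the same member results as quantile-normalized log2 intensity without background correction and served as an alternative. The detection p-values of the authors move in steps of 1 in 936, per the values.

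Here the intensities were background-corrected by normexp from the detection p-values (offset 16), quantile-normalized and log2-transformed with neqc (limma 3.58.1, R 4.3.3). Probes with detection p under 0.01 on at least 3 arrays entered (15856 of 45281). Probe-level limma fits used 4 group means over 12 arrays (8 residual and 5.71 prior degrees of freedom), with 2-sided tests, Benjamini-Hochberg adjustment over all 15856 probes and a threshold of 0.05. Where no array of the dimmer group detected a probe, its fold is a lower bound: the brighter group's mean against, per array, the higher of the lowest detected signal (log2 4.80 to 5.04) and the probe's own. The number of arrays limits the precision. The platform annotation names 1 gene for 34885 probes, several for 18 and none for 10378.

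The members and gene lists were chosen with earlier results of these data known. All probes of the members were reported, and in each list the up to 4 genes with the smallest WT p (by their probe with the highest mean) were named. Further probes of H2-Q5 and H2-Q8 were named after their values were seen. For likeness, the 5 genes outside the members with the highest Pearson r were named. Deviations of same-numbered arrays correlated at 0.33 to 0.62 in WT and 0.31 to 0.58 in DKO. Arrays of unlike number gave -0.41 to 0.13 and -0.43 to 0.23, so the numbers were taken to pair arrays within a genotype. Same-numbered arrays of a genotype also fall in the same set by median intensity, so pairing and set are partly the same. The main fit of 4 group means does not use that pairing, and the fit with the replicate number as a block within each genotype does. No 2 arrays were identical (highest correlation 0.995). The fitting was tested on simulated data. Figures were drawn with matplotlib 3.10.9.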

Additional observations from a re-analysis of the deposited data

Results flagged for a closer look

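One result stood out because the IFNβ changes of the 2 genotypes differed by a test of the difference itself. Probe ILMN_2894678 of H2-T10 changed by 1.63 more in DKO than in WT on the log2 scale (SE 0.19, adjusted p = 0.00063), with 0.69 in WT and 2.32 in DKO. No untreated WT array detected it, so the 0.69 in WT stands against a signal not above background and the 1.63 sets no lower limit on the difference in transcript. The difference was 1.43 within the lower set of arrays by median intensity (adjusted p = 0.067) and 1.85 within the higher set (adjusted p = 0.0088). It was 1.53 without background correction (adjusted p = 1.7e-05). The probe was detected on 2 of 6 WT arrays and on all 6 DKO arrays, and the other probes of H2-T10 gave differences of -0.46 and -0.26, which did not pass. The cause was not tested.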

How the results depend on the processing

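Among the 18 probes, 18 passed for the WT response (17 without background correction, with the authors' log2 values and within the higher set of arrays), 16 for the DKO response, 1 for the difference of responses, 9 for DKO against WT untreated and 7 after IFNβ. Untreated, the 9 were 6 higher and 3 lower in DKO, against 5 and 1 without background correction, with the authors' log2 values, with median scaling and without the filter on dim probes, 5 and 2 with a normexp offset of 50, and 9 and 3 with the set of arrays as a block. That block gave 18 for the DKO response and 1 higher and 8 lower after IFNβ, with 2585 and 5833 of all 15856 tested probes passing in either direction. No change that passed turned its sign under any alternative. The difference of responses gave 3 probes without background correction, 3 with a normexp offset of 50, 3 with the authors' log2 values, 3 with the replicate block, 8 with the replicate block within genotype and 4 with the set of arrays as a block. Over all 15856 tested probes these settings gave 147 to 322, against 130 in the main fit. The difference gave 0 member probes over probes detected on all 12 arrays, 0 with 1 probe per gene and 0 within the lower set. The first 2 of these zeros leave ILMN_2894678 of H2-T10 out of the fit, and at an unadjusted p under 0.05 the count among all 18 probes was 12. Over the 13 probes detected on all 12 arrays, 4 differed after IFNβ. With 1 probe for each of the 8 genes the counts were 8 for the WT response, 7 for the DKO response, 4 untreated and 2 after IFNβ, from fewer probes. Within the lower set, which leaves 1 DKO array a group, the lone array being assumed to vary like the WT arrays, the DKO response gave 9, having lost 7 calls of H2-K1, H2-D1 and H2-Q6, and the untreated comparison 4. The higher set likewise leaves 1 WT array a group. Leaving out each array in turn gave 18 to 18, 14 to 17, 1 to 3, 6 to 9 and 6 to 9 probes in the same order.

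Calls gained by leaving out 1 array were ILMN_1216746 of B2m (0.46, adjusted p = 0.042, without untreated WT replicate 1) and ILMN_2588139 of H2-K1 (0.95, adjusted p = 0.041, without untreated WT replicate 3) in untreated cells. After IFNβ they were ILMN_2777474 of H2-T23 (without untreated WT replicate 1 or 2 or treated WT replicate 2, -0.69 to -0.51), ILMN_2944011 of H2-D1 (without untreated WT replicate 2, treated WT replicate 3 or treated DKO replicate 1, 0.44 to 0.59) and ILMN_2795520 of H2-K1 (-0.81, adjusted p = 0.048, without treated WT replicate 2). Same-numbered arrays of different genotypes correlated at -0.25 to 0.42 untreated and -0.36 to 0.42 treated, so the number does not pair them, and comparisons between genotypes could not be fitted with the block within genotype. The block within genotype changed no other call than those given with the results. Dim signal limits ILMN_2894678, ILMN_2495446 and the Nlrc5 probe most, each undetected in 1 group. Other probes also read near the lowest detected signal in untreated cells, among them ILMN_2675337 of H2-Q6, ILMN_2795520 of H2-K1 and the H2-M3 probe.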
